A study of Mus musculus with 6 samples.

Results

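The genes for the subunits of the SWI/SNF chromatin remodelling complexes were described by the accessibility of the DNA in and around them in lung group 2 innate lymphoid cells (ILC2s). The 30 genes were chosen by function, as the subunits of the BAF, PBAF and ncBAF forms of the complex, and all 30 had at least 1 accessible region. They held 149 of the 57203 regions in the table, of which 122 overlapped a gene body and 27 lay outside with a subunit gene as the nearest protein-coding gene within 100 kb. ATAC-seq, in which the Tn5 transposase cuts into open DNA, was run with 2 libraries per group. The mice were wild type and, unless otherwise stated, female. Memory ILC2s came from mice given intranasal papain at 30 µg a day over 3 days, followed by a rest of 2 months. Effector ILC2s came from mice given the same papain course without the rest, and naive ILC2s from mice given PBS for 3 days. All cells were sorted as Lin-CD25+ST2+ cells, and each library pooled cells of 2 to 4 mice. The series is named for Brg1, the protein that Smarca4 encodes, and no library lacking it was used here.

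SWI/SNF complexes use the energy of ATP to slide or evict nucleosomes, which opens promoters and enhancers to transcription factors. Each complex holds a single ATPase, SMARCA4 (BRG1) or SMARCA2 (BRM), on a core of shared subunits, and the remaining subunits divide the complexes into canonical BAF with ARID1A or ARID1B, PBAF with ARID2 and PBRM1, and ncBAF with BRD9 and BICRA or BICRAL. Papain is a protease that damages the airway epithelium and releases alarmins such as IL-33, to which lung ILC2s respond through the receptor subunit ST2. The values describe how open the DNA of the subunit genes was, which is neither their expression nor the place where the complexes act.

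The libraries held between 11995095 and 20591102 counts in the shared regions. Regions near all 10 ILC2 marker genes were present, and their summed level was 3796 and 3548 in memory, 4427 and 3729 in effector and 3618 and 3475 in naive libraries, in TMM-scaled CPM, the counts of a region relative to its library's total. Of the myeloid markers 4 of 6 had a region, with none at Lyz2 and Csf1r, and their sum was 264 and 269 CPM in memory, 289 and 299 in effector and 265 and 264 in naive libraries. The sum over the 6 of 6 lung epithelium, endothelium and stroma markers with a region was 248 and 258 CPM in memory, 284 and 277 in effector and 241 and 242 in naive libraries. For mast cells and basophils 2 of 4 markers had a region, with none at Mcpt8 and Fcer1a, and the sum was 62.5 and 66.1 CPM in memory, 39.2 and 52.3 in effector and 58 and 74.9 in naive libraries. The myeloid and lung sums were higher, and the mast cell and basophil sum lower, in both effector libraries than in all others, and their part in the results was not tested. The T cell sum (5 of 6 markers with a region) was 111 and 133 CPM in memory, 122 and 141 in effector and 110 and 120 in naive libraries. The NK cell and ILC1 sum (3 of 4) lay between 219 and 254 CPM and the ILC3 sum (2 of 3) between 30.7 and 44.8 CPM over the 6 libraries. The less open 50% of regions held 5.89% and 6.34% of counts in memory, 9.07% and 9.31% in effector and 6.49% and 6.96% in naive libraries. In such bulk libraries a smaller share of cells with a region open and less opening per cell cannot be told apart.

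The promoters of the subunit genes were rich in GC. RefSeq promoter windows of 300 bases (250 before to 50 after the start, GRCm38.p6) were at hand for 23 of the 30 genes, in 25 windows, of which the 2 of Brd9 overlap each other. Their median GC content was 69.7%, against 61% in the 14594 windows that any accessible region overlapped and 52.7% in all 32851 windows. The letters GGGCGG, bound by SP family factors, were found on either strand in 24 of the 25 windows (96%), against 63.1% of accessible and 35.7% of all windows. CCGGAAG, an ETS factor motif, was in 16% of the subunit windows and 16.9% of accessible windows, and CCAAT, the NF-Y motif, was in 20% and 37.1%. No subunit window held the GATA letters AGATAA, which 6.38% of accessible windows held, so few matches would fall in 25 windows. The part of the higher GC content in these motif shares was not tested. A match gives only the letters present in the window. The windows of 4 genes that the results turn on are shown 5′ to 3′: both ATPases, the most open promoter of the set (Actl6a) and the promoter called lower in memory than in effector cells (Bcl11a). Capitals mark matches on either strand to the SP, ETS and NF-Y letters given above and to the AP-1 letters, TGANTCA.
Smarca4, chr9:21615919-21616218, + strand: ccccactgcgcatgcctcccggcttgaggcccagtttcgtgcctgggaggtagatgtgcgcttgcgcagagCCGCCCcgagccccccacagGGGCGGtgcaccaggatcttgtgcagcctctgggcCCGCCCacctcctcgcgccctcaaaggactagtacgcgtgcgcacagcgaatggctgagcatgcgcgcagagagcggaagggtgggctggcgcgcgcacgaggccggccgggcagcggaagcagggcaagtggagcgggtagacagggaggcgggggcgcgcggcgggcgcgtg
Smarca2, chr19:26604910-26605209, + strand: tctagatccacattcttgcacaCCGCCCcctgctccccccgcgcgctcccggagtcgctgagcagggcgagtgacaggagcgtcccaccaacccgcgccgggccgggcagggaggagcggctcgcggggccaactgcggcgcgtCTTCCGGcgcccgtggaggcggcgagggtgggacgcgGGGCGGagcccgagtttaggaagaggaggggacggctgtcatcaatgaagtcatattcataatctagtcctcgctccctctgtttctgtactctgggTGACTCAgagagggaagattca
Actl6a, chr3:32708296-32708595, + strand: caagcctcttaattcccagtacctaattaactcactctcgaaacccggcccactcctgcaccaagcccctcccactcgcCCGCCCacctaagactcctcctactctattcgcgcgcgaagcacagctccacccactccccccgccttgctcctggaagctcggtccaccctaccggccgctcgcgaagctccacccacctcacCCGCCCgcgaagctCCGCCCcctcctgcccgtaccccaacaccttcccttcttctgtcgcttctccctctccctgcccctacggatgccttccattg
Bcl11a, chr11:24080445-24080744, + strand: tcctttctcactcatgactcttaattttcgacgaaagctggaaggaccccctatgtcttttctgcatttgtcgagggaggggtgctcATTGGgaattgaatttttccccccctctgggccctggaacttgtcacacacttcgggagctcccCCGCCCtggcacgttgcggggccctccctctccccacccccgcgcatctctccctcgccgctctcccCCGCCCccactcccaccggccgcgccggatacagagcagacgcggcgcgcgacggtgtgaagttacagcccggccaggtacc

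Levels at the start sites spanned a wide range among the 30 genes. Levels between genes are given as CPM per kb of region, averaged over the 3 groups, for the region over the promoter window in 22 genes and for a region within 1 kb of a gene end in the other 8. The Actl6a promoter was the most open, at 88.5 CPM per kb in memory, 64.4 in effector and 82.7 in naive cells (means of 2 libraries), above 96.8% of the 9790 regions that overlapped a promoter window. Actl6a encodes an actin-related protein of the core. Arid1a followed with a mean of 52.8 and Smarca2 with 49.3 CPM per kb, and their libraries overlapped each other, from 44.3 to 59.1 for Arid1a and from 44.6 to 54.8 for Smarca2. Smarca4 came at rank 22 with 10.7 CPM per kb, between 9.87 and 11.5 in the 6 libraries, so the Smarca2 promoter was more open per kb than that of Smarca4 in every library. The lowest 3 were Bcl11a with 5.17, Phf10 with 3.48 and Actl6b, the actin-related subunit of neurons, with 2.27 CPM per kb. The median of the 30 was 16.9 CPM per kb against 19.5 over all promoter regions, and 13 of the 30 lay above that value. The regions used for Pbrm1, Brd9, Ss18l1, Bicral and Smarcd2 also overlapped a neighbouring gene (Gnl3, Trip13, Psma7, Tbcc and Tcam1, in that order), so their levels belong to both genes.

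**Figure D1:**
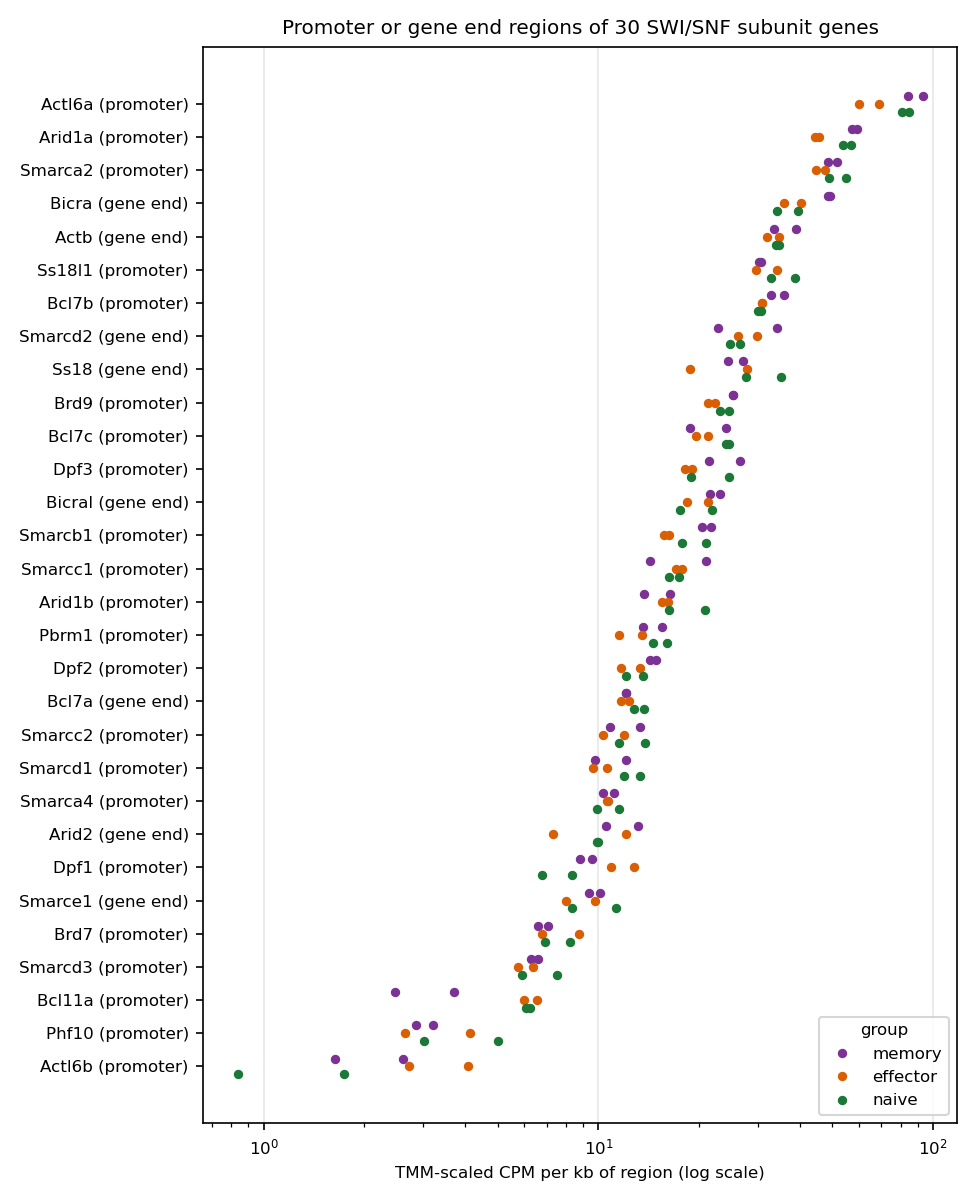
Accessibility at the promoter or a gene end of the 30 SWI/SNF subunit genes in CPM per kb of region on a log axis, with 1 point per library (memory, effector, naive from top to bottom in each row). Actl6a stands highest at 60 to 93 CPM per kb, and the memory libraries of Bcl11a, at 3.71 and 2.47, lie under its effector and naive libraries.

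Between effector and naive cells more subunit regions were called higher than lower, as among all tested regions, and the counts moved with the fit. No start site of the 30 genes was called in edgeR, with 5 at an unadjusted p under 0.05 and 1 called lower by DESeq2. Calls were made with edgeR's quasi-likelihood test, at p under 0.05 after Benjamini-Hochberg adjustment across the 56007 regions tested. Of the 149 subunit regions 146 had enough counts to enter the test. Between effector and naive cells 12 of the 146 were called higher in effector cells (8.22%, against 11.5% of all tested regions) and 2 lower (1.37%, against 4.98%). The median log2 fold change was 0.03 for the subunit regions and 0.00 for all regions. The 12 belonged to Arid1b (6), Bicral (3), Bicra, Arid1a and Smarcc1 (1 each), and none lay at a gene end. Of the 36 regions at gene ends none was called by edgeR, with 6 at an unadjusted p under 0.05 and 1 lower with DESeq2. Across all regions the share called higher was 14.3% away from gene ends and 2.88% at them, and the share called lower 4% and 8.02%. Of the subunit regions away from gene ends 10.9% were called higher and 1.82% lower. With a block for the replicate number, whose meaning the labels do not give, the split was 18 higher and 13 lower. Among the other scalings, total counts gave a split of 14 higher and 0 lower. Over all tested regions the split was 7252 and 1538, against 6449 and 2791 with TMM. TMM on the 20% most abundant regions gave 16 and 0 (8659 and 739 of all). A loess offset on abundance gave 9 and 0 (4912 and 1487 of all). Without effector library 1 only 4 were called higher, and without naive library 1 there were 7.

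Between memory and effector cells the calls fell in both directions, and this comparison shares its effector libraries with the one before. In memory cells 10 of 146 regions were called higher (6.85%, against 7.72% of all tested regions) and 16 lower (11%, against 13.6%), with a median log2 fold change of -0.06, against -0.04 for all regions. The 16 lower ones lay in 6 genes, none within 1 kb of an annotated gene end, and had a median level of 3.56 CPM. The Bcl11a promoter was among them, as its region is centred 4.4 kb inside the annotated gene. The 10 higher ones lay in 7 genes, with a median level of 19.2 CPM, and 3 of these regions lay at gene ends. At gene ends 8.33% of subunit regions were called higher and 0% lower, against 11.5% and 5.18% of all regions there. The split was 5 higher and 18 lower with total counts, and 3 and 27 with TMM on the most abundant regions. Over all tested regions total counts gave 2056 and 8850, against 4322 and 7634 with TMM. TMM on the most abundant regions gave 1003 and 11067 over all. Total counts and TMM on the most abundant regions moved the median log2 fold change of all regions to -0.16 and -0.28. Without effector library 1 the counts were 1 higher and 8 lower, and without memory library 2 they were 5 and 8. With effector library 2 left out 9 were lower, and with memory library 1 left out 10.

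Between memory and naive cells, 2 months after papain, none of the 146 regions was called higher (0.248% of all tested regions were) or lower (0.0714% of all). There were 8 regions at an unadjusted p under 0.05, and DESeq2 called 0 higher and 1 lower, the Bcl11a promoter. The lowest adjusted p of edgeR was 0.0857, at that same promoter. The median log2 fold change was 0.01, against -0.01 for all regions.

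**Figure D2:**
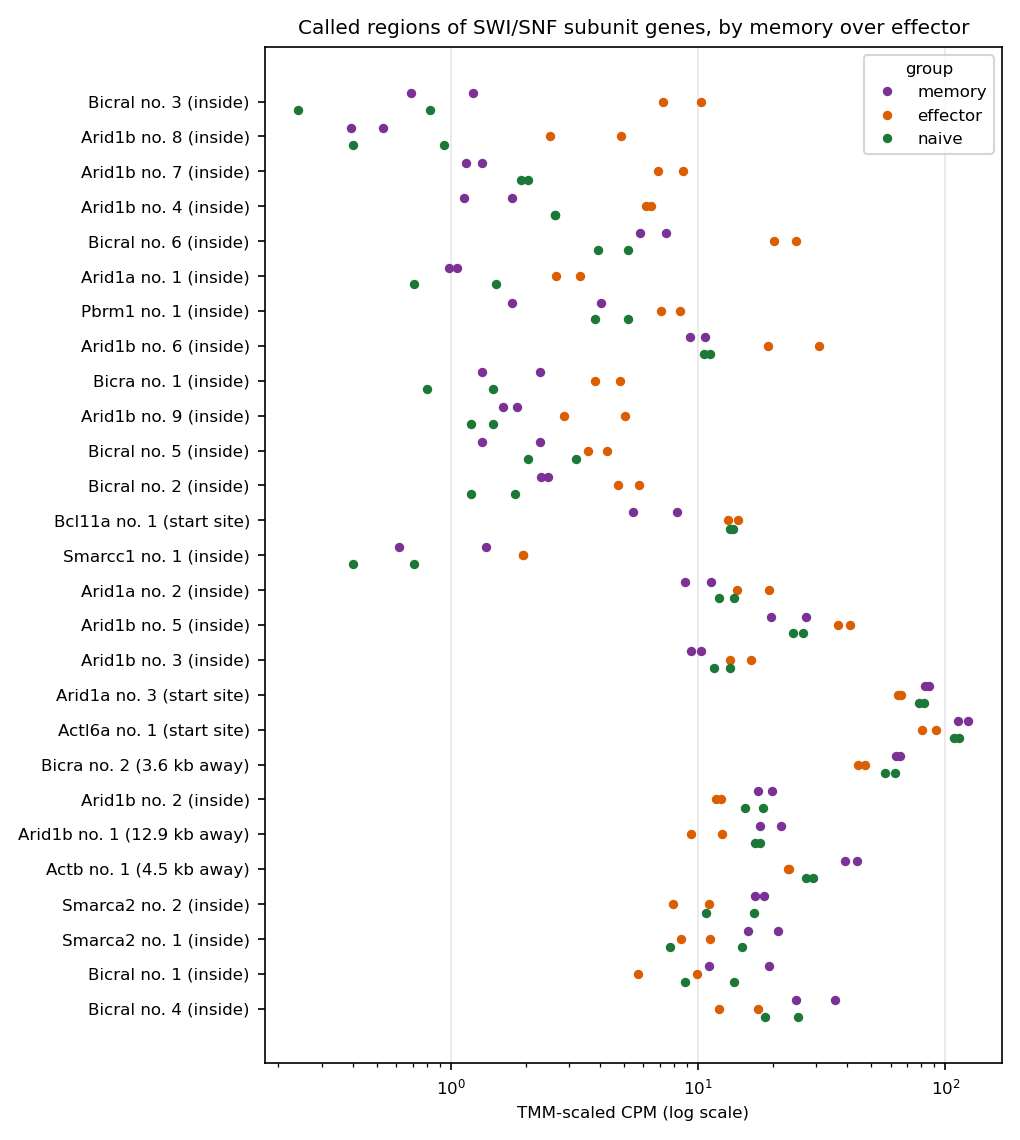
TMM-scaled CPM on a log axis of the 27 regions of subunit genes called in any comparison, ordered by the log2 fold change of memory over effector cells, with 1 point per library. The regions at the top, led by Bicral no. 3, have their highest levels in the effector libraries, and those at the bottom, such as Actb no. 1 and Smarca2 no. 2, their lowest means there.

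Of the ATPase genes, Smarca4 stayed between 24.2 and 28.3 CPM at its start site in all 6 libraries. Its promoter region (9:21615232-21617689, mm10) had 25.4 and 27.2 CPM in memory, 26 and 26.3 in effector and 28.3 and 24.2 in naive libraries. The 3 groups overlapped, and the log2 fold changes of effector over naive, memory over naive and memory over effector were -0.00, 0.00 and 0.01 (edgeR adjusted p = 0.992, 0.998 and 0.981). A second region 5.4 kb outside the gene (9:21609262-21610700) was more open than the promoter, with 54.2 and 57.8 CPM in memory, 36.8 and 50.3 in effector and 43.4 and 52.3 in naive libraries. Memory libraries lay above the others there, but the difference from effector cells, a log2 fold change of 0.36, was not called (edgeR adjusted p = 0.11). The remaining region, inside the gene, had 3 and 3.2 CPM in memory, 3.89 and 3.66 in effector and 2.8 and 2.99 in naive libraries and was not called either. Summed over its regions, Smarca4 had 74.5 and 81.5 CPM in memory, 65.6 and 79 in effector and 67.4 and 74.3 in naive libraries. Their ranges overlapped between effector and naive cells and between memory and effector cells.

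Smarca2, the gene for the alternative ATPase, had 8 regions, and 2 inside the gene body (25%, against 7.72% of all tested regions) were called higher in memory than in effector cells. The region 19:26682423-26685096 had 17 and 18.5 CPM in memory, 7.92 and 11.1 in effector and 10.7 and 16.8 in naive libraries. Memory libraries lay above both effector libraries (log2 fold change 0.90 ± 0.24 SE, edgeR adjusted p = 0.0129), but not without effector library 1 (0.144) or memory library 2 (0.0623). The region 19:26645363-26646733 had 15.9 and 21.1 CPM in memory, 8.5 and 11.2 in effector and 7.68 and 15 in naive libraries. Its log2 fold change of memory over effector was 0.91 ± 0.28 (SE, edgeR adjusted p = 0.0304), lost without effector library 1 (0.219), effector library 2 (0.0546) and memory library 2 (0.189) and with total counts (0.0717). With TMM on the most abundant regions both calls were lost (0.0726 and 0.123). Its naive libraries reached to both sides of the effector libraries. Over the 11 tested ATPase regions, no region was called by edgeR between effector and naive cells, with 2 at an unadjusted p under 0.05 and none called by DESeq2. Of all tested regions 11.5% were called higher and 4.98% lower, so few calls would fall among 11 regions at those shares.

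Among the core genes, with 38 tested regions, 1 region was called higher in effector than in naive cells (2.63%, against 11.5% of all) and 2 higher in memory than in effector cells (5.26%, against 7.72%). The Actl6a promoter region (3:32708132-32709468), shown above by its sequence, had 124 and 112 CPM in memory, 80.1 and 92 in effector and 113 and 108 in naive libraries. Both effector libraries lay under all others. Memory exceeded effector by a log2 fold change of 0.46 ± 0.13 (SE, edgeR adjusted p = 0.0159), and effector against naive gave -0.36 ± 0.13 (edgeR adjusted p = 0.0599), which passed 0.05 with DESeq2 (0.0455) and without memory library 1 (0.0454) or memory library 2 (0.0474). The memory call was lost without effector library 1 (0.169) and memory library 1 (0.0814), with total counts (0.0533), with TMM on the most abundant regions (0.217) and with the loess offset (0.339).

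Actb, the gene of the beta-actin monomer held in the complex and in the cytoskeleton, had a region 4.5 kb outside the gene (5:142912459-142913496) with 44 and 39.3 CPM in memory, 23 and 23.2 in effector and 27.2 and 29.1 in naive libraries. Memory libraries lay above all others. The memory over effector log2 fold change was 0.85 ± 0.15 (SE, edgeR adjusted p = 0.000835), called in each of the 14 alternative fits, and memory over naive was 0.56 ± 0.15 (edgeR adjusted p = 0.134). The called core region of effector over naive cells lay inside Smarcc1, a scaffold subunit (9:110138792-110139572), and was weak, at 0.617 and 1.38 CPM in memory, 1.95 and 1.95 in effector and 0.4 and 0.705 in naive libraries. It rested on 64 effector and 17 naive counts, a ratio of 3.38 (exact 95% counting interval 1.96 to 6.16, counting error only). Its adjusted p in edgeR was 0.0436, and the call was lost when any effector or naive library was left out (0.0695 to 0.212), with the loess offset (0.254) and with DESeq2 (0.12). No region of Smarcb1, Smarcc2, Smarcd1, Smarcd2, Smarcd3, Smarce1, Actl6b or the Bcl7 genes was called by edgeR in any comparison. Their lowest adjusted p of edgeR was 0.0816, at Smarcb1 for memory over effector cells.

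Canonical BAF genes held 68 tested regions, of which 7 were called higher (10.3%, against 11.5% of all) and 1 lower (1.47%, against 4.98%) in effector than in naive cells. In memory over effector cells 3 were higher (4.41%, against 7.72%) and 10 lower (14.7%, against 13.6%). Arid1b alone had 36 regions. Arid1b spans 353.4 kb, and only 19 genes of the annotation had more regions. ARID1B is an alternative to ARID1A as the large subunit that defines canonical BAF. Of the 36 Arid1b regions 6 were called higher in effector than in naive cells (16.7%, against 11.5% of all). Of all regions away from gene ends 14.3% were called higher. The 6 lay inside the gene body, between 100.6 and 333.5 kb from the gene start. The region 17:5165037-5167325, at 171.9 kb, had 1.15 and 1.33 CPM in memory, 8.7 and 6.87 in effector and 1.92 and 2.05 in naive libraries. The effector libraries stood apart from all others. The log2 fold change was 1.96 ± 0.34 (SE) for effector over naive (edgeR adjusted p = 0.000809) and -2.63 ± 0.36 for memory over effector (edgeR adjusted p = 0.000108), and both were called in each of the 14 alternative fits.

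The region 17:5138293-5140188, at 144.9 kb, was the more abundant, with 9.25 and 10.6 CPM in memory, 30.8 and 19.1 in effector and 10.5 and 11.2 in naive libraries. Effector libraries differed from each other by more than memory and naive libraries did, and both exceeded all 4 of those. Its log2 fold changes were 1.20 ± 0.23 (SE) for effector over naive (edgeR adjusted p = 0.00163, and 0.0701 without effector library 1) and -1.32 ± 0.23 for memory over effector (edgeR adjusted p = 0.000706). The region 17:5094710-5095149, at 100.6 kb, had 1.76 and 1.13 CPM in memory, 6.42 and 6.13 in effector and 2.64 and 2.64 in naive libraries. Memory libraries were the lowest here, and memory over effector was called in each of the 14 alternative fits (log2 fold change -2.15 ± 0.37 SE, edgeR adjusted p = 0.000629). The effector over naive value of 1.25 ± 0.34 (SE, edgeR adjusted p = 0.0186) was lost when any effector or naive library was left out, with adjusted p between 0.0673 and 0.124.

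The region 17:5255350-5256100, at 261.4 kb, had 0.529 and 0.394 CPM in memory, 4.87 and 2.52 in effector and 0.4 and 0.939 in naive libraries. With 14 memory and 119 effector counts, effector cells had 8.19 times the scaled counts of memory cells (exact 95% counting interval 4.69 to 15.4). The region entered the test only through its effector libraries, where it was high, so this ratio is a description alone. Effector over naive and memory over effector were also called with no low-count filter. The memory over effector call (edgeR adjusted p = 0.00129) gave 0.0542 without effector library 1, and the effector over naive call (0.00498) gave 0.152. The regions at 138.3 and 333.5 kb had effector over naive log2 fold changes of 0.62 and 1.55 (edgeR adjusted p = 0.0197 and 0.0179), and both were lost without effector library 1 (0.157 and 0.263), naive library 1 (0.133 and 0.107) and naive library 2 (0.0504 and 0.0561). The call at 333.5 kb was also lost with the loess offset (0.0518).

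Near the Arid1b start the values ran the other way. The region 12.9 kb outside the gene (17:4979763-4981371) had 17.8 and 21.6 CPM in memory, 9.34 and 12.5 in effector and 17.8 and 17 in naive libraries. Effector libraries were the lowest, with log2 fold changes of -0.67 ± 0.20 (SE) for effector over naive (edgeR adjusted p = 0.0331) and 0.85 ± 0.20 for memory over effector (edgeR adjusted p = 0.00683). Without effector library 1 these gave adjusted p of 0.275 and 0.0962. The effector over naive call was also lost without naive library 1 (0.145) and naive library 2 (0.0884), with total counts (0.0812), with TMM on the most abundant regions (0.157) and with the loess offset (0.0534), and the memory over effector call without memory library 2 (0.0634). The region at the start itself (17:4993565-4994583) had 17.5 and 19.8 CPM in memory, 11.8 and 12.4 in effector and 18.2 and 15.4 in naive libraries. It was called higher in memory than in effector cells (log2 fold change 0.62 ± 0.19 SE, edgeR adjusted p = 0.0281), a call that was lost without effector library 1 (0.144), effector library 2 (0.0759) and memory library 2 (0.15). Total counts (0.0837), TMM on the most abundant regions (0.192) and the loess offset (0.0625) lost it too. The neighbouring region over the promoter window, 17:4994866-4995923, had group means of 15.9 CPM in memory, 16.7 in effector and 19.5 in naive cells and was not called.

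**Figure D3:**
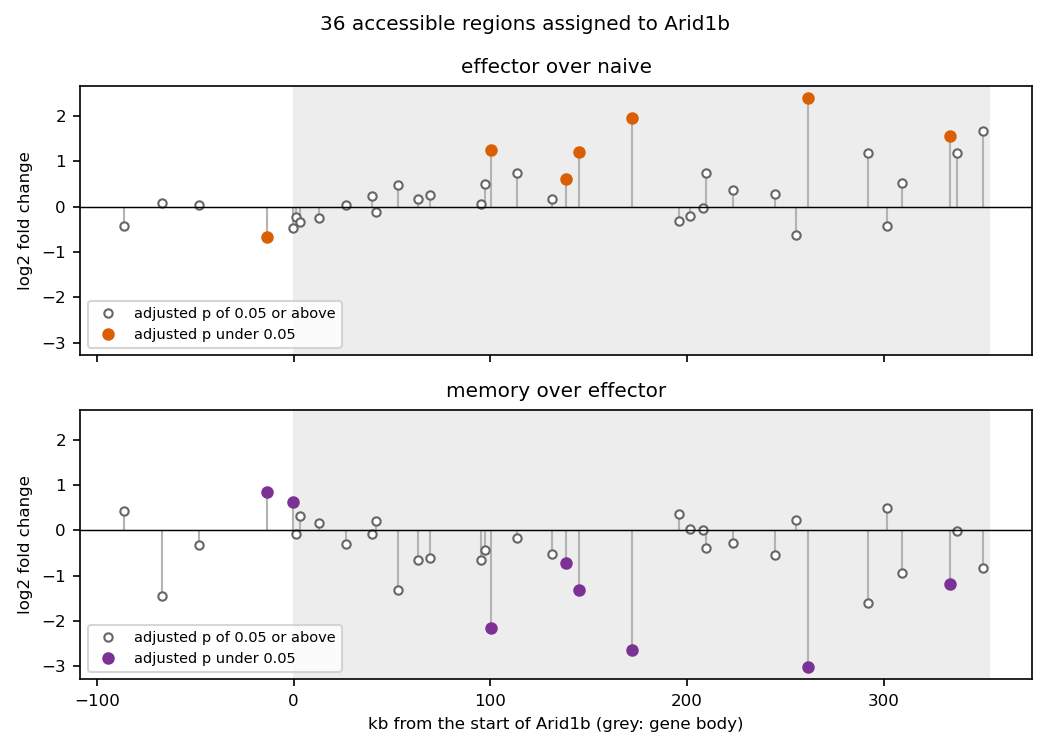
Log2 fold changes of the 36 regions assigned to Arid1b by their distance in kb from the gene start, effector over naive above and memory over effector below, with the gene body in grey and called regions filled. The 6 regions called higher in effector cells (16.7% of the 36, against 11.5% of all tested regions) lie between 100.6 and 333.5 kb. The region called lower lies before the start.

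Arid1a, the gene of the other large BAF subunit, had 13 regions and an open promoter (4:133756313-133757763) with 85.8 and 82.7 CPM in memory, 66.2 and 64.3 in effector and 82.3 and 78.2 in naive libraries. Effector libraries lay lowest. Memory over effector was called (log2 fold change 0.37 ± 0.12 SE, edgeR adjusted p = 0.0395), but the call was lost when any single library was left out, with adjusted p between 0.0547 and 0.149, and with total counts (0.141), TMM on the most abundant regions (0.49) and the loess offset (0.577). Inside the gene, a weak region 1.5 kb from the gene end (4:133680160-133680870) had 1.06 and 0.984 CPM in memory, 2.66 and 3.32 in effector and 1.52 and 0.705 in naive libraries. Effector libraries were the highest, with log2 fold changes of 1.46 ± 0.47 (SE) for effector over naive (edgeR adjusted p = 0.0432) and -1.55 ± 0.47 for memory over effector (edgeR adjusted p = 0.0273). The first was lost without effector library 1 (0.134), effector library 2 (0.207) and naive library 2 (0.284), and the second when any memory or effector library was left out (0.0762 to 0.152). Both were also lost with the loess offset (0.172 and 0.18) and with DESeq2 (0.123 and 0.0792). A further region inside the gene, 4:133687769-133688992, was called lower in memory than in effector cells at -0.74 ± 0.22 (SE, edgeR adjusted p = 0.0253), but not without effector library 2 (0.23) or memory library 1 (0.155).

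Bcl11a gave the subunit set's lowest adjusted p between memory and naive cells. BCL11A is a zinc finger transcription factor that copurifies with BAF and is known for the silencing of fetal globin genes and for its part in lymphoid development. Its promoter region (11:24079869-24082079) had 8.2 and 5.46 CPM in memory, 13.2 and 14.5 in effector and 13.8 and 13.4 in naive libraries. Both memory libraries lay under all 4 others, while effector and naive libraries overlapped. Means were 6.83 ± 1.93 in memory, 13.9 ± 0.884 in effector and 13.6 ± 0.268 in naive cells (SD, n = 2 each). Memory over effector was called (log2 fold change -1.04 ± 0.24 SE, edgeR adjusted p = 0.00491), and that call was lost only without memory library 2 (0.0679). Memory over naive, at -1.01 ± 0.24, missed the threshold in edgeR (adjusted p = 0.0857) and passed it with DESeq2 (0.0464) and without memory library 1 (0.0315). Effector over naive was 0.03 ± 0.23 (edgeR adjusted p = 0.948).

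The region at the Bcl11a gene end before the promoter (11:24075940-24077689) had 15.2 and 12.7 CPM in memory, 20.4 and 17.8 in effector and 21 and 19.3 in naive libraries. Memory was the lowest again, with log2 fold changes of -0.46 over effector and -0.54 over naive cells, and neither was called (edgeR adjusted p = 0.0894 and 0.297). All 4 Bcl11a regions had memory over naive values between -1.01 and -0.31. The remaining genes counted here as canonical BAF had few tested regions and none called by edgeR in any comparison. They were Dpf1, Dpf2 and Dpf3 (4, 1 and 3 tested regions), which encode histone readers, and Ss18 and Ss18l1 (4 and 3). The products of the last pair also belong to ncBAF. The lowest adjusted p of edgeR was 0.0589, at a Dpf3 region for effector over naive cells. Of all tested regions 11.5% were called higher and 4.98% lower in that comparison.

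PBAF genes had 9 tested regions, of which 1 was called lower in memory than in effector cells (11.1%, against 13.6% of all). The subunits are ARID2, the bromodomain proteins PBRM1 and BRD7, and PHF10. The region lay inside Pbrm1 (14:31089670-31090808), also overlapped the neighbouring gene Smim4, and had 1.76 and 4.04 CPM in memory, 7.07 and 8.42 in effector and 5.2 and 3.82 in naive libraries. Effector libraries were the highest. Memory over effector was -1.36 ± 0.35 (SE, edgeR adjusted p = 0.0113), and the call was lost without effector library 2 (0.0717) and memory library 1 (0.0962). Between effector and naive cells edgeR called none of the 9 (11.5% of all tested regions were called higher and 4.98% lower). There were 2 at an unadjusted p under 0.05 and none called by DESeq2.

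Of the ncBAF genes, Bicral held the regions that differed most after papain. BICRAL and its paralog BICRA are alternative scaffolds of ncBAF. The ncBAF genes counted here were Brd9, Bicra and Bicral, without the shared Ss18 and Ss18l1, and had 20 tested regions. Of these, 4 were called higher (20%, against 11.5% of all) and 1 lower (5%, against 4.98%) in effector than in naive cells. In memory over effector cells 3 were higher (15%, against 7.72%) and 5 lower (25%, against 13.6%). The Bicral region 17:46879456-46880641 had 5.82 and 7.38 CPM in memory, 24.8 and 20.3 in effector and 5.2 and 3.93 in naive libraries. Effector libraries stood far above the other 4. Effector exceeded naive cells 4.96-fold (log2 fold change 2.31 ± 0.24 SE, edgeR adjusted p = 1.51e-05), and memory over effector was -1.76 ± 0.23 (edgeR adjusted p = 9.6e-05). Both were called in each of the 14 alternative fits. Memory over naive was 0.55 ± 0.25 (edgeR adjusted p = 0.478).

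The Bicral region 17:46866668-46867245 was low in memory and naive cells, with 1.23 and 0.689 CPM in memory, 10.3 and 7.21 in effector and 0.24 and 0.822 in naive libraries. With 284 effector and 17 naive counts, effector cells had 15 times the scaled counts of naive cells (exact 95% counting interval 9.21 to 26.1). Both effector over naive (edgeR adjusted p = 4.89e-05) and memory over effector (log2 fold change -3.24 ± 0.45 SE, edgeR adjusted p = 0.00013) were called in each of the 14 alternative fits. A neighbouring region, 17:46869949-46871514, ran the other way, with 24.9 and 35.6 CPM in memory, 12.1 and 17.4 in effector and 18.7 and 25.4 in naive libraries. It was called higher in memory than in effector cells (1.04 ± 0.22 SE, edgeR adjusted p = 0.00395), but not without effector library 1 (0.063) or memory library 2 (0.0504). A further region, 17:46847387-46849063, had 2.47 and 2.31 CPM in memory, 5.78 and 4.75 in effector and 1.2 and 1.82 in naive libraries. It was called higher in effector than in naive cells at 1.77 ± 0.37 (SE, edgeR adjusted p = 0.00355, and 0.0531 without effector library 1).

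Bicra had a region inside the gene (7:16001920-16004204) with 2.29 and 1.33 CPM in memory, 3.83 and 4.81 in effector and 0.8 and 1.47 in naive libraries. Effector libraries were the highest, at a log2 fold change of 1.89 ± 0.44 (SE) over naive cells (edgeR adjusted p = 0.00663), lost without effector library 2 (0.0533) and naive library 1 (0.0685). A more abundant region 3.6 kb outside the gene (7:16051786-16053427) had 65.4 and 63.2 CPM in memory, 47.4 and 44.1 in effector and 62.4 and 57 in naive libraries. Here the effector libraries were the lowest. Effector over naive was -0.38 ± 0.13 (SE, edgeR adjusted p = 0.049), which no removal of an effector or naive library kept (0.0935 to 0.28) and which total counts (0.12), TMM on the most abundant regions (0.342) and the loess offset (0.334) also lost. Memory over effector was 0.49 ± 0.13 (edgeR adjusted p = 0.0117), lost without effector library 1 (0.0512) and effector library 2 (0.0802), with TMM on the most abundant regions (0.163) and with the loess offset (0.178). Brd9, the bromodomain subunit of ncBAF, had a single region, at its start and shared with Trip13, and it was not called.

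The 12 regions that rose in effector over naive cells had memory over naive log2 fold changes between -0.91 and 0.87, and none of those was called. Arid1b, Bicral and Bicra, grouped after their values were seen because they hold most calls, gave 10 of the 12 higher and both lower calls of effector over naive cells over 55 tested regions (18.2% and 3.64%, against 11.5% and 4.98% of all). The 7 memory over effector calls not described above, 3 each in Arid1b and Bicral and 1 in Bicra, had log2 fold changes between -1.29 and 0.97 and edgeR adjusted p between 0.00632 and 0.05 (rounded). Each of the 7 was lost when 1 or more of the memory and effector libraries was left out.

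The fold changes of the subunit regions moved with how open a region was. Regions were divided into 5 classes of equal size by their level. In the least abundant 20% of all regions the median log2 fold change of effector over naive cells was 0.50 over 26 subunit regions and 0.55 over all 11202 regions. In the most abundant 20% it was -0.13 over 28 subunit regions and -0.20 over all. For memory over effector cells the subunit medians were -0.79 in the least and 0.15 in the most abundant 20%, against -0.76 and 0.25 for all regions. With the loess offset, which removes such a trend, 9 of the 14 effector over naive calls and 15 of the 26 memory over effector calls were still made.

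**Figure D4:**
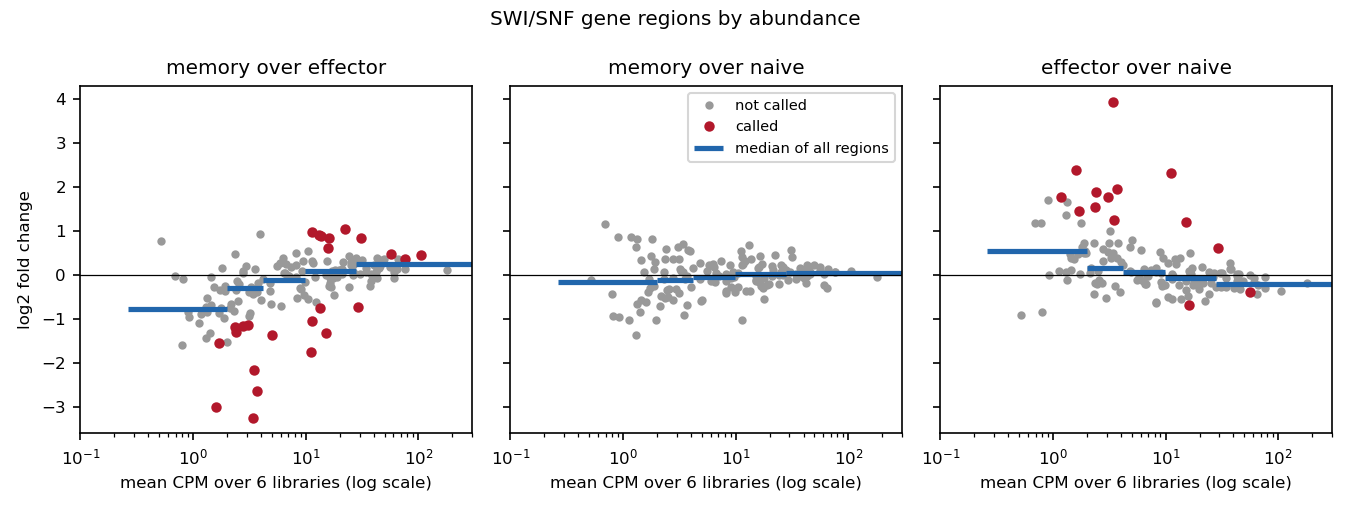
Log2 fold change of the 146 tested regions of subunit genes against their mean CPM over 6 libraries (log axis), in panels for memory over effector, memory over naive and effector over naive, with called regions in red and the median of all tested regions in 5 classes of abundance as blue bars. The blue bars run from -0.76 to 0.25 in the memory over effector panel and from 0.55 to -0.20 in the effector over naive panel.

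Summed over all regions of a gene, few subunit genes differed. Counts were summed per gene and tested over 15986 genes. In effector over naive cells 1 of the 30 was called higher (against 6.27% of all genes) and 0 lower (3.13% of all). In memory over effector cells 1 was called higher (4.23% of all) and 1 lower (8.9% of all). Bicral had 127 and 152 CPM in memory, 159 and 150 in effector and 117 and 121 in naive libraries, and its effector over naive log2 fold change of 0.38 ± 0.10 (SE, edgeR adjusted p = 0.0323) was lost when any effector or naive library was left out (0.0721 to 0.263). Actl6a had 115 and 107 CPM in memory, 81.4 and 94.2 in effector and 106 and 105 in naive libraries, with 0.34 ± 0.10 (SE) for memory over effector (edgeR adjusted p = 0.0436). That call held without effector library 2 and without memory library 2, and was lost in every other removal of a library.

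Bcl11a had a sum of 24.2 and 19 CPM in memory, 35.7 and 35.5 in effector and 34.7 and 34.6 in naive libraries. Memory libraries lay under all others, at -0.73 ± 0.15 (SE) over effector cells (edgeR adjusted p = 0.00817), lost without effector library 1 (0.0921) and memory library 2 (0.0525). Between memory and naive cells edgeR called 0 of the 30 sums higher (0.113% of all genes) and 0 lower (0.0876% of all), with 3 at an unadjusted p under 0.05, and DESeq2 called 1 lower, Bcl11a. Its edgeR value was -0.69 ± 0.15 (SE, adjusted p = 0.109), and DESeq2 gave an adjusted p of 0.0211.

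**Figure D5:**
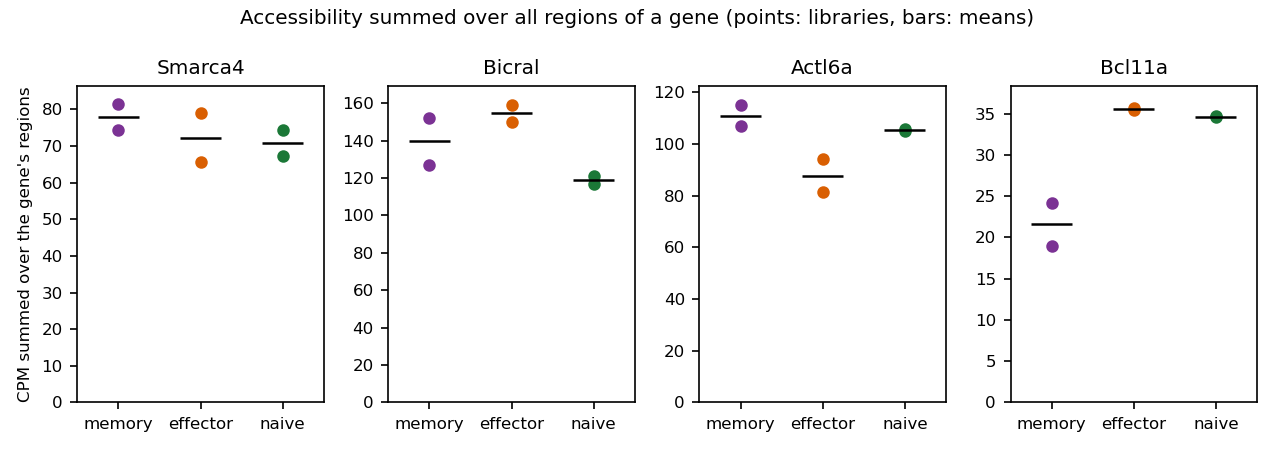
CPM summed over all regions of Smarca4, Bicral, Actl6a and Bcl11a in memory, effector and naive libraries, with points for libraries and bars for the means of 2. Bcl11a is at 24.2 and 19 CPM in memory libraries against 34.6 to 35.7 in all others, while the Smarca4 libraries span 65.6 to 81.5.

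A list of other remodeller genes (the CHD and NuRD, INO80 and ISWI families, with Smarcad1, Hells, Atrx and Bcl11b) was called at these rates. Bcl11b is related to Bcl11a, which is counted here as a subunit gene, so the list is not wholly apart from SWI/SNF. Smarcad1, Hells, Atrx and Bcl11b held 35 of the tested regions and 6 of those called higher in memory than in effector cells. Of their 273 tested regions in 49 genes 20 were called higher in effector than in naive cells (7.33%, against 11.5% of all tested regions). Another 10 were called lower (3.66%, against 4.98%). In memory over effector cells 19 were higher (6.96%, against 7.72%) and 31 lower (11.4%, against 13.6%). Between memory and naive cells edgeR called none (0.248% of all tested regions were called higher and 0.0714% lower). There were 18 at an unadjusted p under 0.05 and none called by DESeq2.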

How the data were processed

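ATAC-seq was run on 6 libraries of sorted lung ILC2s, 2 each of memory, effector and naive mice, grouped by the labels. The deposited table holds raw counts per shared region, made by the authors on mm10. The submitters' processing notes name fastp and Bowtie2 2.5.3 among the tools, with MACS2 and bedtools 2.31.1. They also name edgeR 3.34.0, deepTools 3.5.4 and ChIPseeker 1.28.3. How reads were counted and filtered, and whether region starts count from 0 or 1, is not given in the sources used here.

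Each region was assigned to every protein-coding gene of GRCm38.p6 (mm10) that it overlapped, otherwise to the nearest gene end within 100 kb, so a region need not act on its gene. The gene table gives gene starts and ends without exons. A region within 1 kb of a gene end counted as a gene end region. Among the subunit regions 8 also overlapped another gene.

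edgeR 4.0.16 (R 4.3.3, limma 3.58.1) was applied to the counts as deposited. filterByExpr removed 1196 regions, and scaling was by TMM. A quasi-likelihood fit with 1 coefficient for each group covered all 6 libraries (robust, 3 residual degrees of freedom, common dispersion 0.0283). Pairs of groups were compared with a two-sided F test, and p-values were adjusted over all tested regions or genes. The model was tested on simulated counts with 200 changed regions, drawn at the dispersion of the abundance trend. Far more regions were called in the data, so the rates of recovery may differ there. Between effector and naive cells it called 35 of 99 regions given a log2 fold change of 1 in size. It called 85 of 100 regions given a log2 fold change of 2 and 6 of 55355 unchanged ones. A region that was not called may therefore still have changed. Each standard error is the size of the log2 fold change over the root of its F value. CPM are counts scaled to effective library size. Where a group had 20 or fewer counts the ratio of scaled counts is given with its exact 95% interval, which covers counting error only.

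The subunit genes, the lists of other remodellers and markers, and the motifs were chosen with earlier results of these data known. The values of 1 marker list are not reported here. The promoter or gene end region of each subunit gene and the called regions are shown in the figures, and library values are printed for a part of them. Alternatives were RLE size factors, total counts, TMM computed from the 20% most abundant regions, a loess offset (span 0.3), no low-count filter, DESeq2 1.42.0, a block for the replicate number, each library left out, a fit of only the 2 groups compared, an adjusted p under 0.01 and regions overlapping the gene alone.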

Additional observations from a re-analysis of the deposited data

How the results depend on the processing

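No called value changed sign in the 14 alternative fits. Of the 43 called results (40 of regions, 3 of gene sums) 9 were called in each of those fits: the Arid1b region at 171.9 kb and the Bicral regions at 17:46866668 and 17:46879456 in both comparisons with effector cells, and in memory over effector cells the Actb region (outside the gene, so not among regions overlapping it) and the Arid1b regions at 100.6 and 144.9 kb. When a library was left out, the effector over naive counts ran from 4 to 13 regions higher and 0 to 3 lower, and the memory over effector counts from 1 to 9 higher and 8 to 18 lower. Memory over naive stayed at 0 higher and gave 0 to 1 lower. Gene sums gave 0 to 1 higher and 0 to 2 lower, and promoter or gene end regions 0 to 2 higher and 0 to 1 lower. For effector over naive regions called lower (2), total counts, TMM on the most abundant regions, the loess offset and regions overlapping the gene alone gave 0, and a fit of only the 2 groups gave 1. Of memory over effector regions 10 were called higher and 16 lower. Total counts gave 5 higher, TMM on the most abundant regions 3 and 27, the loess offset 6 and 10, and DESeq2 10 lower. Over all tested regions the loess offset gave 2145 higher and 5017 lower in that comparison, against 4322 and 7634 with TMM. At an adjusted p under 0.01 there were 7 higher and 0 lower in effector over naive cells, and 3 higher and 8 lower in memory over effector cells. At that threshold no gene sum was called higher (1 in each of these comparisons at 0.05), nor was a promoter or gene end region higher in memory over effector cells (2 at 0.05). Memory over effector gene sums gave 0 higher with total counts, TMM on the most abundant regions, the loess offset and the 2-group fit, and 2, 3 and 2 lower with total counts, TMM on the most abundant regions and the 2-group fit. Promoter or gene end regions higher in memory over effector cells were 0 with those 3 scalings and 1 in the 2-group fit. DESeq2 called 1 promoter or gene end region lower in effector over naive cells, and 1 region, 1 gene sum and 1 promoter region lower in memory over naive cells. The replicate numbers were shared by the groups, but the labels do not say what they mark, and deviations of same-numbered libraries correlated at 0.188 to 0.271. With the replicate block there were 13 regions lower in effector over naive cells, 2 higher and 1 lower in memory over naive cells and 19 higher in memory over effector cells. The block gave 2 gene sums higher and 1 lower in effector over naive cells, 1 lower in memory over naive cells and 2 higher and 3 lower in memory over effector cells. For promoter or gene end regions it gave 3 lower in effector over naive, 1 lower in memory over naive and 5 higher in memory over effector cells. Where a group was left with 1 library, that library was assumed to vary like the others. With 2 libraries a group, regions of few counts, such as the one in Smarcc1, are measured with the least precision.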
